A study of Homo sapiens with 12 samples.

Results

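RNA of 86 genes was lowest, among 4 groups of cells, in those given a shifted form of the microRNA miR-183-5p that begins 2 nucleotides earlier than the reference form. RNA was measured on 12 Affymetrix arrays of MDA-MB-231, an established human line from a triple-negative breast cancer, 3 arrays per group. Every group was transfected with RNAiMAX for 48 h with 50 nM of one oligonucleotide. The control group received Negative Control #1, another the mirVana mimic of miR-183-5p (the archetype), another the mimic |-2|-2| (minus2) and the last the mimic |+2|+2| (plus2). All groups carry the same line and the same reagent, and the mimics were added from outside, so the levels of the cells' own forms were not part of the comparison.

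A gene entered the set where its mean log2 signal with minus2 was at least 0.585 (1.5-fold) below the means of control, the archetype and plus2, and where all 3 minus2 arrays lay below the 9 others. Of 14940 genes with a mean log2 signal above 4.54, 98 met these values, which is 0.656%, and 12 of them were left out by name because they belong to other gene groups, among them CXCL8 and PTP4A1. The 86 that remained hold 84 protein-coding genes, the pseudogene PPP1R11P1 and the long non-coding RNA LINC03033. By the same values, 14 genes were lowest with the archetype, 121 with plus2 and 73 in control, and 12 genes were highest with minus2. The genes were chosen by the difference of the minus2 mean from each other group mean and by the order of the arrays, so those differences are given below as a description with no test. Comparisons among control, the archetype and plus2 were not used to choose them directly, although the rule limits how low the archetype and plus2 means can be, and those are tested.

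A microRNA is loaded into an Argonaute protein and leads it to messenger RNAs that pair with its seed, nucleotides 2 to 8 from its 5′ end, after which the bound messenger is degraded or translated less. An isomiR is a form of the same microRNA with shifted ends. Where the 5′ end moves, the seed moves with it, so that the forms can pair with different messengers. The 86 genes are listed for being low with minus2, and whether their transcripts hold a match to its seed was not analysed here.

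The mimics are shown because the place of the seed is what sets them apart; they are written as DNA, 5′ to 3′, with the seed in capitals. The archetype is the RefSeq mature sequence, at chr7:129774967-129774988 on the minus strand of GRCh38.p14, and the isomiR sequences are those of the labels.
minus2: tGTATGGCactggtagaattca
archetype: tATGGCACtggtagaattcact
plus2: tGGCACTGgtagaattcactgt
Each is 22 nucleotides long and 18 nucleotides are common to the 3. The minus2 seed shares 5 of its 7 bases with the archetype seed and 3 with the plus2 seed.

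The arrays carried high signals of genes known for this line, with control means of 13.80 for VIM, 14.49 for CD44 and 15.40 for AXL on the log2 scale. Of 9 luminal markers, ESR1, PGR and FOXA1 stayed below the floor of 4.54 in mean signal, while KRT8 (13.83 in control), KRT19 (12.75), KRT18 (12.44), EPCAM (8.61), GATA3 (5.79) and CDH1 (4.92) lay above it. Of 5 white blood cell markers PTPRC was below the floor, CD3E, CD14 and LYZ were just above it at 4.66 to 5.06 in control, and CD68, also a protein of lysosomes, was at 13.69 in control and 13.32 with minus2. Of 5 fibroblast markers PDGFRA, DCN and LUM were below the floor, and PDGFRB and COL1A1 were at 5.13 and 5.37 in control. Replicate arrays correlated with Pearson's r between 0.997 and 0.999 across genes, which are not independent replicates. Separate cultures for the 3 arrays of a group are not mentioned in the labels, so the p-values reflect only the spread among these arrays, perhaps a technical one. In bulk RNA, fewer cells that express a gene and less of its RNA per cell cannot be told apart.

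Across the 86 genes the difference of minus2 from control ran from -2.38 (TMEM109) to -0.60 (CFAP263), with a median of -0.86 and quartiles of -1.11 and -0.72. The median gene was left with 55.1% of its control signal, within a range of 19.3% to 66.2%, and 28 genes had a difference of -1 or lower. The 3 minus2 arrays gave nearly the same median, at -0.85, -0.87 and -0.84 relative to the control mean. The genes are mostly strong signals, with a median control signal of 10.29 against 7.21 over all genes tested, and a range of 6.35 to 14.84. Their median SD between replicates was 0.074 with minus2 and 0.058 in control, against 0.058 and 0.064 over all genes tested. The largest SD among the minus2 arrays was 0.45, for GON7. By the rule minus2 could not hold the highest group mean, which was that of plus2 in 47 genes, of control in 23 and of the archetype in 16. In 37 of the genes every archetype and plus2 array lay within 0.3 of the control mean. Neither this count nor that of the highest group mean was made over all genes tested, so neither is read as a trait of the set.

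**Figure D1:**
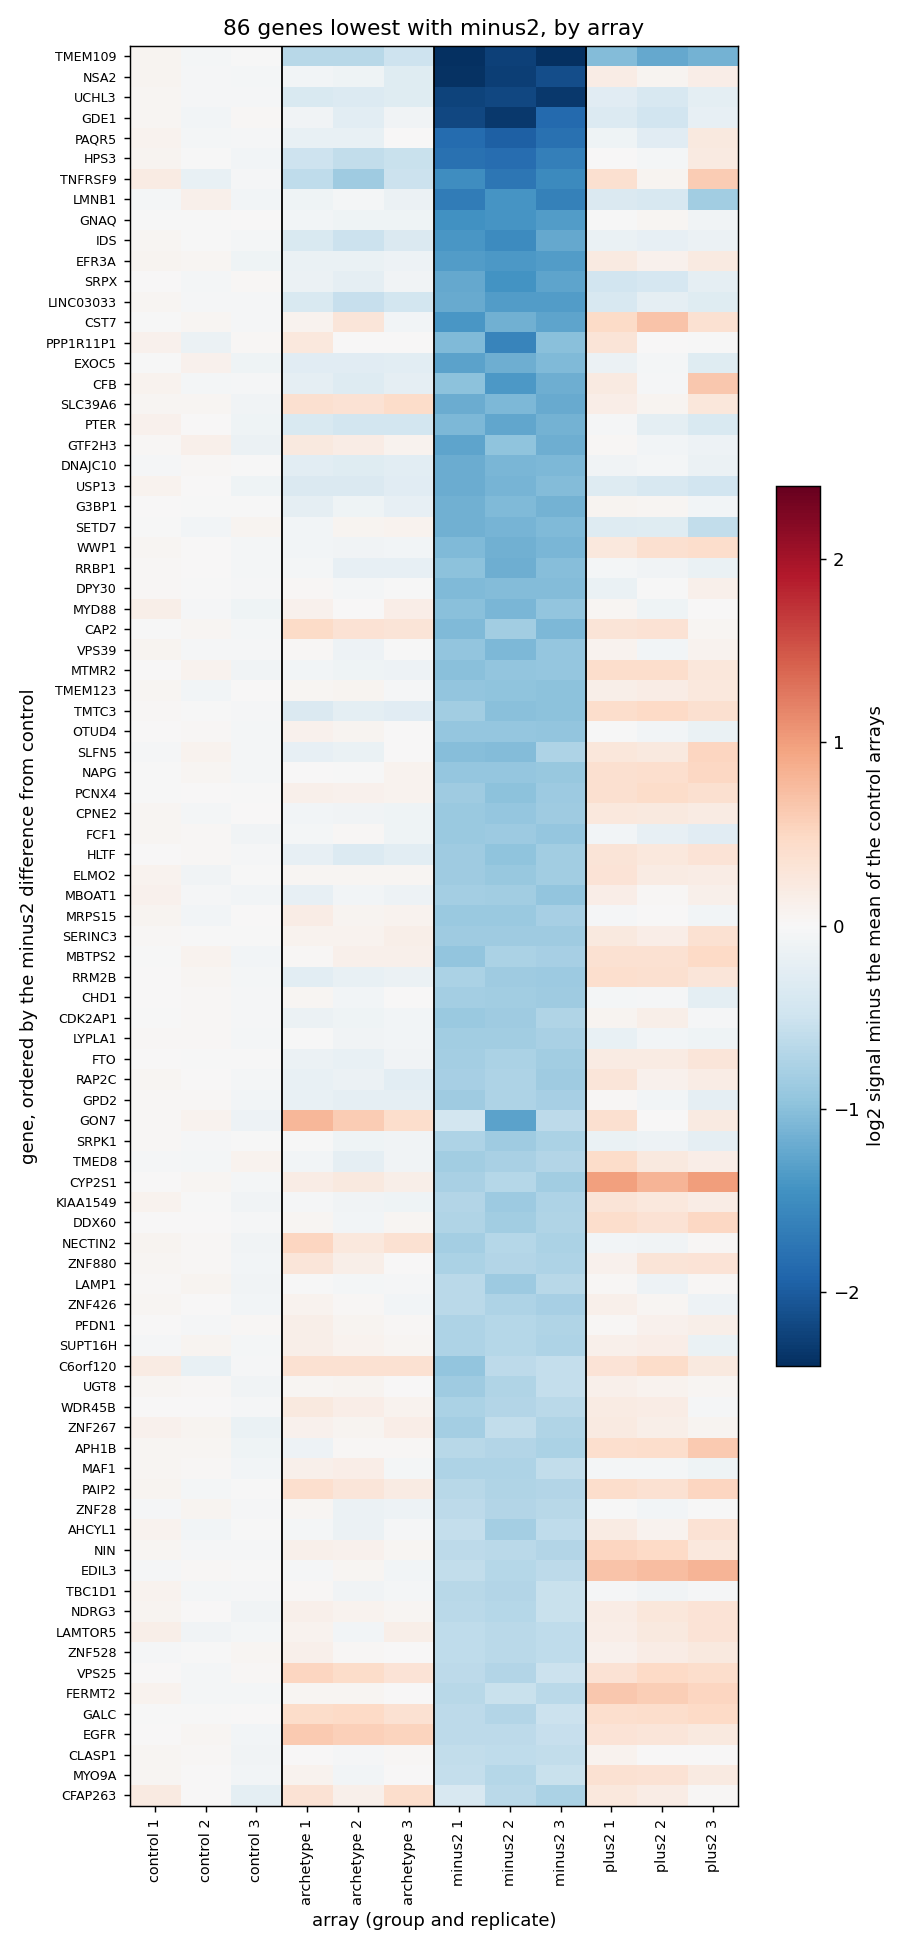
Log2 signal minus the control mean for the 86 genes (rows, ordered by the minus2 difference from control) in the 12 arrays (columns). The 3 minus2 columns are blue in every row, from -2.38 for TMEM109 to -0.60 for CFAP263, while the archetype and plus2 columns hold both red and blue cells.

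At the edge of the rule, the smallest distance of the minus2 mean to another group mean was 0.588 for ZNF28, 0.588 for AHCYL1 and 0.585 for TBC1D1. Just outside lay KIF23 at 0.574, NFKBIA at 0.574 and PPP4R4 at 0.573. KIF genes are also left out by name, so KIF23 could not have entered the set. The members nearest the edge therefore differ from the nearest non-members by little, and the set has no natural gap there.

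The 12 genes with the largest margin, the distance of the minus2 mean to the nearest other group mean, are given array by array. NSA2, a factor needed to build the large ribosomal subunit, stood furthest apart. Its log2 signal was 12.42, 12.33 and 12.31 in control, 12.29, 12.25 and 12.07 with the archetype, 9.99, 10.10 and 10.23 with minus2 and 12.53, 12.42 and 12.51 with plus2. The means were 12.35 ± 0.059 in control and 10.11 ± 0.12 with minus2 (SD, n = 3), a difference of -2.25 that left 21.1% of the control signal. The 9 arrays of the other groups lay far above the highest minus2 array. UCHL3, which removes ubiquitin from proteins, read 11.71, 11.64 and 11.64 in control, 11.30, 11.33 and 11.37 with the archetype, 9.44, 9.48 and 9.34 with minus2 and 11.39, 11.29 and 11.43 with plus2. It lay -2.24 from control, at 21.1%, and the archetype and plus2 arrays sat between minus2 and control without overlapping either. GDE1, a phosphodiesterase that splits glycerophosphoinositol, measured 11.04, 10.93 and 11.03 in control, 10.92, 10.74 and 10.91 with the archetype, 8.82, 8.68 and 9.14 with minus2 and 10.67, 10.54 and 10.80 with plus2. Its difference was -2.12, or 23% of control, and the archetype and plus2 arrays lay slightly below all control arrays.

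PAQR5, a membrane receptor for progestins, had log2 signals of 10.61, 10.46 and 10.48 in control, 10.33, 10.34 and 10.52 with the archetype, 8.67, 8.56 and 8.73 with minus2 and 10.41, 10.25 and 10.75 with plus2. Control, archetype and plus2 arrays overlapped, and the minus2 mean lay -1.87 from control. GNAQ, the alpha subunit of the Gq protein that couples receptors to phospholipase C, gave 9.93, 9.92 and 9.94 in control, 9.87, 9.82 and 9.82 with the archetype, 8.48, 8.52 and 8.60 with minus2 and 9.91, 9.97 and 9.85 with plus2. It stood at 37.9% of control (-1.40), with the 9 arrays of the other groups close together. CST7, cystatin F, an inhibitor of cathepsins in lysosomes, read 10.08, 10.13 and 10.07 in control, 10.18, 10.38 and 10.03 with the archetype, 8.70, 8.95 and 8.84 with minus2 and 10.55, 10.78 and 10.46 with plus2. Here plus2 held the highest 3 arrays of the 12 and minus2 the lowest, -1.27 from control.

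TMEM109, a protein of intracellular membranes, showed the largest difference from control but was lower with every mimic. Its signals were 11.51, 11.42 and 11.44 in control, 10.80, 10.79 and 10.96 with the archetype, 9.02, 9.21 and 9.01 with minus2 and 10.42, 10.22 and 10.32 with plus2. The 4 groups did not overlap, in the order control, archetype, plus2 and minus2, with minus2 at 19.3% of control. PPP1R11P1 is a pseudogene of PPP1R11, a ubiquitin ligase that inhibits protein phosphatase 1, and read 7.67, 7.43 and 7.58 in control, 7.81, 7.57 and 7.57 with the archetype, 6.50, 5.98 and 6.56 with minus2 and 7.86, 7.57 and 7.55 with plus2. Only the minus2 arrays stood apart (-1.22). Its parent gene PPP1R11 gave 7.61, 7.55 and 7.58 in control, 7.66, 7.71 and 7.60 with the archetype, 7.05, 7.27 and 7.10 with minus2 and 7.50, 7.58 and 7.63 with plus2, a difference of -0.44 ± 0.059 (SE), and because the copies are alike the probes may not tell them apart.

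HPS3, a subunit of the BLOC-2 complex that sends cargo to lysosome-related organelles, measured 11.98, 11.91 and 11.86 in control, 11.41, 11.32 and 11.38 with the archetype, 10.12, 10.09 and 10.28 with minus2 and 11.92, 11.87 and 12.13 with plus2. Control and plus2 overlapped, the archetype lay between, and minus2 was -1.76 from control. EFR3A, which anchors a phosphatidylinositol kinase complex at the plasma membrane, gave 12.12, 12.09 and 11.94 in control, 11.89, 11.89 and 11.93 with the archetype, 10.72, 10.68 and 10.71 with minus2 and 12.27, 12.15 and 12.27 with plus2. Its archetype arrays lay just below and its plus2 arrays just above control, and minus2 was at 39.3% of control in the mean. SLC39A6, a zinc importer, read 10.80, 10.81 and 10.68 in control, 11.14, 11.12 and 11.21 with the archetype, 9.58, 9.68 and 9.56 with minus2 and 10.93, 10.83 and 11.03 with plus2. Its archetype arrays were above all control arrays, and minus2 was -1.16 from control. GTF2H3, a subunit of the transcription and repair factor TFIIH, had 11.47, 11.56 and 11.30 in control, 11.68, 11.62 and 11.53 with the archetype, 10.17, 10.47 and 10.27 with minus2 and 11.47, 11.38 and 11.31 with plus2. It lay -1.14 from control, with the minus2 arrays alone at the bottom. LMNB1, DPY30 and WWP1 were the next 3 by margin and are described below with their groups. Their minus2 means lay 1.05, 1.04 and 1.03 below the nearest other group.

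**Figure D2:**
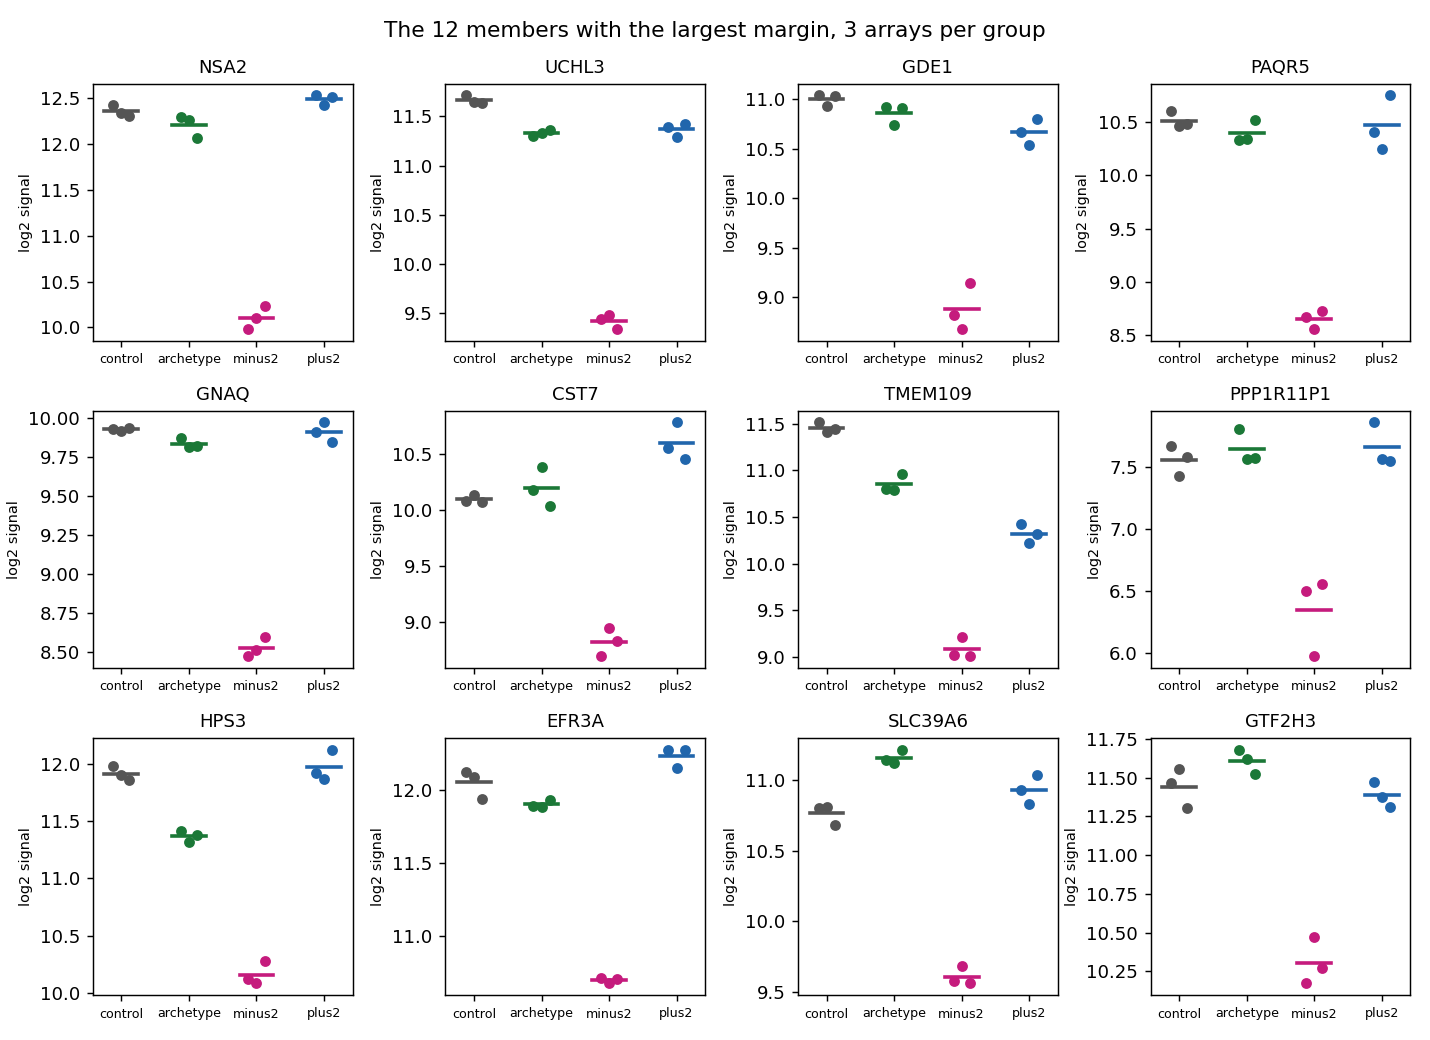
Log2 signal of the 12 genes with the largest margin, 1 point per array and a line at each group mean, for control, archetype, minus2 and plus2. The minus2 points are the lowest 3 in each panel, and in TMEM109 the archetype and plus2 points also lie below control.

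The 86 genes were sorted into 8 groups by what they do, after their values were known, and each value in parentheses is the log2 difference of the minus2 mean from the control mean. Among 8 genes of RNA handling and the ribosome the median was -0.84. Beside NSA2 they were G3BP1 (-1.11), the core of stress granules, FCF1 (-0.89), which cuts the precursor of the small subunit's RNA, and MRPS15 (-0.86), a protein of the mitochondrial ribosome. The others were FTO (-0.81), an RNA demethylase, GON7 (-0.79), a subunit of the KEOPS complex that modifies transfer RNA, the splicing-factor kinase SRPK1 (-0.78) and PAIP2 (-0.70), which holds poly(A)-binding protein away from the cap complex.

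Ubiquitin and protein folding gave 6 genes with the lowest group median, -1.11. After UCHL3 came DNAJC10 (-1.12), a disulphide reductase of the endoplasmic reticulum, and USP13 (-1.11) and OTUD4 (-0.94), both deubiquitinases. WWP1 (-1.10) is a ubiquitin ligase of the HECT kind and PFDN1 (-0.72) a subunit of the chaperone prefoldin.

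Membrane traffic and the lysosome took 14 genes, with a median of -0.85. Lysosomal proteins among them were IDS (-1.38), which breaks down heparan and dermatan sulphate, LAMP1 (-0.73), a protein of the lysosome's membrane, GALC (-0.61), which breaks down galactosylceramide, and LAMTOR5 (-0.62), part of the Ragulator scaffold for mTORC1. Transport factors were EXOC5 (-1.17) of the exocyst, VPS39 (-0.99) of the HOPS tether, VPS25 (-0.61) of ESCRT-II, the SNARE-recycling factor NAPG (-0.92) and TMED8 (-0.77). RRBP1 (-1.06) binds ribosomes to the endoplasmic reticulum, MTMR2 (-0.96) is a phosphoinositide phosphatase, WDR45B (-0.71) acts in autophagy and TBC1D1 (-0.63) is a Rab GTPase-activating protein.

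Receptors, signalling and immunity formed the largest group, 15 genes with a median of -0.93. After PAQR5, GNAQ, EFR3A and CST7, the immune genes were TNFRSF9 (-1.58), the co-stimulatory receptor 4-1BB, CFB (-1.17), complement factor B, MYD88 (-1.01), the adaptor of Toll-like and interleukin-1 receptors, SLFN5 (-0.93) and DDX60 (-0.76), which are known as interferon-induced genes. The others were ELMO2 (-0.87), which activates Rac, the protease MBTPS2 (-0.84), which releases SREBP and ATF6, RAP2C (-0.80), a small GTPase, NECTIN2 (-0.76), a cell adhesion receptor, APH1B (-0.71) of gamma-secretase, and the EGF receptor EGFR (-0.60).

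Metabolism and transport held 10 genes with a median of -0.82, GDE1 and SLC39A6 first. They were PTER (-1.15), the lysophospholipid acyltransferase MBOAT1 (-0.87), RRM2B (-0.83), a p53-induced subunit of ribonucleotide reductase, LYPLA1 (-0.81), which removes palmitate from proteins, GPD2 (-0.80), the mitochondrial glycerol phosphate dehydrogenase, the cytochrome P450 CYP2S1 (-0.77), UGT8 (-0.71), which makes galactosylceramide, and AHCYL1 (-0.66), which binds the IP3 receptor. Chromatin and transcription held 12 genes with a median of -0.73. After GTF2H3 these were SETD7 (-1.11), a lysine methyltransferase, DPY30 (-1.05), a shared subunit of histone H3 lysine methyltransferase complexes, HLTF (-0.89) and CHD1 (-0.83), both remodellers, the FACT subunit SUPT16H (-0.72) and MAF1 (-0.70), which represses RNA polymerase III. The remaining 5 were zinc finger genes, ZNF880 (-0.74), ZNF426 (-0.73), ZNF267 (-0.71), ZNF28 (-0.66) and ZNF528 (-0.62).

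The cytoskeleton, lamina and adhesion group held 9 genes and had the smallest median difference, -0.64. LMNB1 (-1.57) is lamin B1 of the nuclear lamina, CAP2 (-0.995) recycles actin, NIN (-0.65) anchors microtubules at the centrosome, CLASP1 (-0.60) stabilises microtubules and MYO9A (-0.60) is a myosin. SRPX (-1.31) and EDIL3 (-0.64) are secreted, the latter binding integrins, FERMT2 (-0.61) is the integrin activator kindlin-2 and CFAP263 (-0.60) belongs to cilia. The 12 genes not placed elsewhere had a median of -0.90. After TMEM109, LINC03033 (-1.30) and PPP1R11P1 they were TMEM123 (-0.96), TMTC3 (-0.94), PCNX4 (-0.91), CPNE2 (-0.90), SERINC3 (-0.85), CDK2AP1 (-0.82), KIAA1549 (-0.77), C6orf120 (-0.72) and NDRG3 (-0.62).

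The question whether these genes were lowered by minus2 alone was put to the comparisons that leave minus2 out. A gene is called where limma's adjusted p over the 14940 genes was below 0.05. With the archetype, 27 of the 86 were called against control, 10 higher and 17 lower, which is 31.4%, 11.6% and 19.8% of the set. Over all genes tested 24.6% were called, 14.3% higher and 10.3% lower. Among the 8880 genes of high signal (a mean above 6.56), closer to the set in signal, the shares were 39.4%, 23.1% and 16.3%. The total called was thus near the background, and the lower calls were above that of all genes and near that of high-signal genes. The median difference was -0.019, against 0.011 over all genes, in a range of -0.66 to 0.61.

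With plus2, 45 of the 86 were called against control, 35 higher and 10 lower, or 52.3%, 40.7% and 11.6% of the set. Over all genes tested 33.6% were called, 17.4% higher and 16.2% lower, and over genes of high signal 50.2%, 24.8% and 25.4%. The median was 0.14, with a range of -1.14 to 0.93, against 0.0046 over all genes. Between plus2 and the archetype, which shares the plus2 arrays with the comparison just given, 45 were called, 37 higher with plus2 and 8 lower, or 52.3%, 43% and 9.3%. All genes gave 28.9%, 13% and 15.9%, and high-signal genes 44.6%, 18.5% and 26%. The higher calls with plus2 were therefore a larger share of the set than of either background, and the lower calls a smaller one. The rule keeps out genes whose plus2 mean is near or under the minus2 mean. It thus limits the share of lower calls and can raise that of higher calls. Neither background passed such a rule, so no trait of the set is read from these gaps. The called changes were mostly small: 2 genes were called at 1.5-fold or more higher and 1 lower with plus2 against control, and 1 higher and 2 lower with the archetype. Between plus2 and the archetype 5 were called at 1.5-fold or more higher with plus2, and the lowest difference was -0.53. Shares at 1.5-fold were not counted over all genes tested, and the rule limits large falls.

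So the label of genes lowered by minus2 alone did not hold for 23 of the 86 at this threshold, which fell with the archetype (17), with plus2 (10) or with both, in comparisons that share the control arrays. Lower calls with the archetype were 19.8% of the set, 10.3% of all genes tested and 16.3% of high-signal genes. With plus2 they were 11.6%, 16.2% and 25.4%. The rule limits how low the archetype and plus2 means can be, so these shares cannot show whether such falls mark the set. Another 29 of the 86 were called in neither direction with either mimic. The matching shares over all genes tested, for these 29 and for the 23, were not counted, so neither is read as a trait of the set. By group, the 15 receptor and signalling genes held 9 of the 35 that rose with plus2 and 0 of the 10 that fell in limma, also 0 at an unadjusted p below 0.05. Membrane traffic held 6 that rose and 0 that fell in limma, or 1 at an unadjusted p below 0.05. The genes of ubiquitin and protein folding held 3 that fell with the archetype and 0 that rose, also 0 unadjusted in limma, and 2 that fell and 1 that rose with plus2. The 12 genes not placed elsewhere held 8 that rose with plus2 and 2 that fell. In the whole set 40.7% rose with plus2, against 17.4% of all genes tested and 24.8% of high-signal genes. With the archetype 11.6% of the set rose, against 14.3% and 23.1%. The groups are small and were formed after the values were known, and nothing is read from their counts.

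**Figure D3:**
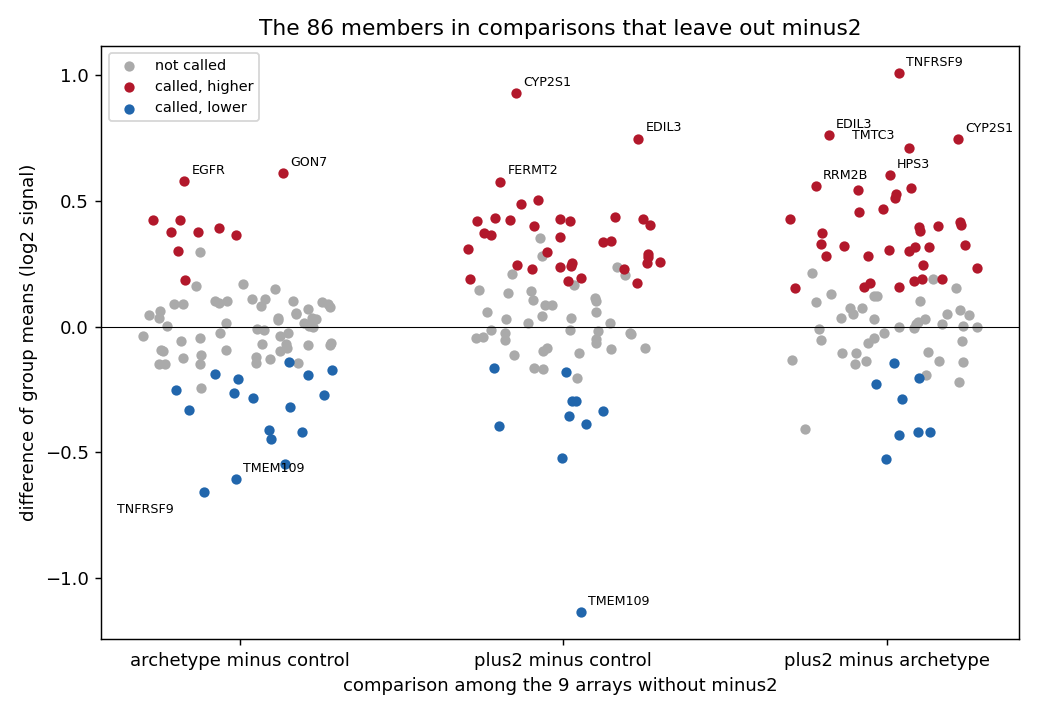
Difference of group means on the log2 scale for the 86 genes (points) in the 3 comparisons that leave minus2 out, red for called higher, blue for called lower and grey for not called. With plus2 against control 35 points are red and 10 blue, and TMEM109 lies lowest at -1.14.

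The largest calls lower with the archetype began with TNFRSF9. Its log2 signals were 9.24, 8.86 and 9.02 in control, 8.43, 8.20 and 8.52 with the archetype, 7.54, 7.31 and 7.52 with minus2 and 9.42, 9.10 and 9.65 with plus2. The archetype arrays lay below all control and plus2 arrays, by -0.66 ± 0.14 (SE, limma adjusted p = 0.00472) against control, while plus2 against archetype was 1.01 ± 0.14 (SE, limma adjusted p = 2.56e-04). Against control, plus2 was not called (0.35 ± 0.14). TMEM109 and HPS3, whose arrays are given above, fell by 0.61 ± 0.072 (SE, limma adjusted p = 8.16e-05) and 0.54 ± 0.072 (SE, limma adjusted p = 1.77e-04). LINC03033 read 11.19, 11.11 and 11.11 in control, 10.78, 10.59 and 10.70 with the archetype, 9.92, 9.80 and 9.79 with minus2 and 10.76, 10.93 and 10.84 with plus2. It fell with the archetype by 0.45 ± 0.062 (SE, limma adjusted p = 2.67e-04) and with plus2 by 0.29 ± 0.062 (SE, limma adjusted p = 0.00332), with both groups below every control array. PTER, a hydrolase, gave 8.89, 8.80 and 8.70 in control, 8.42, 8.36 and 8.34 with the archetype, 7.72, 7.54 and 7.66 with minus2 and 8.77, 8.57 and 8.43 with plus2, and fell with the archetype by 0.42 ± 0.082 (SE, limma adjusted p = 0.00289). UCHL3 fell with the archetype by 0.33 ± 0.051 (SE, limma adjusted p = 5.44e-04) and with plus2 by 0.30 ± 0.051 (SE, limma adjusted p = 7.68e-04), far less than its difference with minus2.

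Among the 10 genes higher with the archetype, GON7 had the largest difference and the widest spread. Its signals were 7.89, 7.95 and 7.73 in control, 8.66, 8.47 and 8.27 with the archetype, 7.42, 6.57 and 7.22 with minus2 and 8.23, 7.87 and 8.07 with plus2. The archetype difference was 0.61 ± 0.18 (SE, limma adjusted p = 0.0319), and the minus2 arrays differed among themselves more than those of any other member. EGFR measured 11.54, 11.56 and 11.46 in control, 12.15, 12.09 and 12.05 with the archetype, 10.89, 10.88 and 10.97 with minus2 and 11.86, 11.81 and 11.76 with plus2. It rose by 0.58 ± 0.047 (SE, limma adjusted p = 3.86e-06) with the archetype and by 0.29 ± 0.047 (SE, limma adjusted p = 5.13e-04) with plus2, while its minus2 arrays lay -0.60 from control in the mean, so that the direction differed between forms.

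VPS25 read 12.97, 12.91 and 12.99 in control, 13.47, 13.39 and 13.28 with the archetype, 12.33, 12.24 and 12.45 with minus2 and 13.30, 13.44 and 13.38 with plus2. It rose by 0.42 ± 0.064 (SE, limma adjusted p = 4.69e-04) with the archetype and by 0.42 ± 0.064 with plus2. GALC gave 7.99, 7.98 and 8.01 in control, 8.43, 8.47 and 8.36 with the archetype, 7.37, 7.29 and 7.49 with minus2 and 8.40, 8.42 and 8.47 with plus2, and rose by 0.42 ± 0.052 (SE, limma adjusted p = 1.13e-04) and 0.44 ± 0.052. In VPS25 and GALC the archetype and plus2 arrays lay together above control, with minus2 below it. SLC39A6, given above, rose by 0.39 ± 0.060 (SE, limma adjusted p = 5.59e-04) with the archetype and was 0.16 ± 0.060 with plus2, not called.

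Of the genes lower with plus2, TMEM109 changed most (-1.14 ± 0.072, SE, limma adjusted p = 3.95e-07). LMNB1 came next, with 10.42, 10.59 and 10.40 in control, 10.37, 10.43 and 10.34 with the archetype, 8.80, 9.05 and 8.86 with minus2 and 10.13, 10.09 and 9.63 with plus2. It fell by 0.52 ± 0.12 (SE, limma adjusted p = 0.00435) with plus2, and the archetype was not called (-0.093 ± 0.12). SETD7 read 10.29, 10.24 and 10.36 in control, 10.22, 10.36 and 10.37 with the archetype, 9.14, 9.17 and 9.25 with minus2 and 9.99, 10.00 and 9.71 with plus2, with plus2 below control by 0.39 ± 0.076 (SE, limma adjusted p = 0.00179). USP13 measured 8.52, 8.45 and 8.34 in control, 8.09, 8.09 and 8.16 with the archetype, 7.25, 7.32 and 7.39 with minus2 and 8.12, 8.05 and 7.97 with plus2, and fell by 0.39 ± 0.059 (SE, limma adjusted p = 3.19e-04) with plus2 and by 0.32 ± 0.059 (SE, limma adjusted p = 0.00182) with the archetype. In SETD7 all 3 plus2 arrays lay between minus2 and control and the archetype arrays overlapped control, whereas in USP13 all arrays of both other mimics lay between. SRPX gave 11.37, 11.31 and 11.38 in control, 11.21, 11.13 and 11.27 with the archetype, 10.12, 9.92 and 10.09 with minus2 and 10.90, 10.96 and 11.14 with plus2, with a plus2 difference of -0.35 ± 0.070 (SE, limma adjusted p = 0.00217).

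The highest rise with plus2 was that of CYP2S1, with 7.07, 7.09 and 6.997 in control, 7.23, 7.29 and 7.19 with the archetype, 6.27, 6.37 and 6.21 with minus2 and 8.03, 7.86 and 8.05 with plus2. Its plus2 arrays stood above all others, by 0.93 ± 0.060 (SE, limma adjusted p = 4.67e-07) against control. EDIL3 read 11.93, 11.97 and 11.95 in control, 11.93, 11.99 and 11.89 with the archetype, 11.36, 11.26 and 11.31 with minus2 and 12.64, 12.68 and 12.76 with plus2 and rose by 0.75 ± 0.046 (SE, limma adjusted p = 3.14e-07). FERMT2 gave 10.08, 9.96 and 9.96 in control, 10.05, 10.05 and 10.00 with the archetype, 9.34, 9.47 and 9.35 with minus2 and 10.64, 10.58 and 10.51 with plus2 and rose by 0.58 ± 0.053 (SE, limma adjusted p = 7.54e-06). In EDIL3 and FERMT2 the archetype lay with control, plus2 above and minus2 below. CST7, given above, rose by 0.50 ± 0.099 (SE, limma adjusted p = 0.00205). APH1B had 6.99, 6.98 and 6.84 in control, 6.81, 6.96 and 6.97 with the archetype, 6.27, 6.24 and 6.18 with minus2 and 7.33, 7.36 and 7.57 with plus2, a rise of 0.49 ± 0.071 (SE, limma adjusted p = 2.59e-04).

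Against the archetype, plus2 was higher by 0.76 ± 0.046 for EDIL3, 0.74 ± 0.060 for CYP2S1 and 0.60 ± 0.072 for HPS3. TMTC3, a mannosyltransferase of the endoplasmic reticulum, read 12.33, 12.29 and 12.26 in control, 11.94, 12.07 and 12.02 with the archetype, 11.46, 11.29 and 11.31 with minus2 and 12.72, 12.76 and 12.67 with plus2. It fell with the archetype by 0.28 ± 0.054, rose with plus2 by 0.42 ± 0.054 and differed by 0.71 ± 0.054 (SE, limma adjusted p = 3.21e-06) between them. FTO, RRM2B, HLTF and RAP2C likewise were called lower with the archetype and higher with plus2, comparisons that share the control arrays. Their differences with the archetype were -0.14 ± 0.043, -0.19 ± 0.049, -0.25 ± 0.049 and -0.19 ± 0.054, and with plus2 0.23 ± 0.043, 0.36 ± 0.049, 0.30 ± 0.049 and 0.19 ± 0.054, in that order. NECTIN2 was lower with plus2 than with the archetype (-0.42 ± 0.069, SE, limma adjusted p = 8.46e-04), at 10.34, 10.31 and 10.19 in control, 10.80, 10.53 and 10.65 with the archetype, 9.46, 9.59 and 9.52 with minus2 and 10.22, 10.20 and 10.31 with plus2. Its archetype arrays stood above all others. TMEM109, LMNB1, SETD7 and EGFR were lower with plus2 than with the archetype as well, by 0.53 ± 0.072, 0.43 ± 0.12, 0.42 ± 0.076 and 0.29 ± 0.047.

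The other genes of the pathways to which leading members belong were then set beside them, from lists that were chosen with earlier results of these data known. Beside NSA2, 51 other genes of large ribosomal subunit assembly were tested. With minus2, 31 of them rose against control and 2 fell, where 17.5% of all genes tested rose and 11.9% fell (29.4% were called), and their median difference was 0.23 against 0.014 over all genes. Shares among high-signal genes were not counted for minus2 against control. NSA2, at -2.25, lay far below the rest of its list. It was chosen for being low with minus2, so that gap is partly set by the rule. The largest changes were those of PAK1IP1 at 0.99 ± 0.073 (SE, limma adjusted p = 1.88e-06), FTSJ3 at 0.71 ± 0.067 and RRS1 at 0.57 ± 0.16, all higher, while SBDS (-0.28 ± 0.060) and NMD3 (-0.22 ± 0.037) fell. Beside FCF1 (-0.89), 30 of 54 other genes of small subunit assembly rose and 3 fell, with a median of 0.21. RIOK1 rose by 0.63 ± 0.072 (SE, limma adjusted p = 5.18e-05), WDR3 by 0.52 ± 0.062 and TSR2 by 0.50 ± 0.060, and HEATR1 was lower at -0.34 ± 0.060.

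These 2 lists were also counted without minus2. With the archetype against control, where 14.3% of all genes tested rose and 10.3% fell, 22 of the 51 large subunit genes rose and 5 fell, and 21 of the 54 small subunit genes rose and 0 fell in limma, also 0 at an unadjusted p below 0.05. The medians were 0.15 and 0.14, of the same sign as with minus2. With plus2 against control, where 17.4% of all genes rose and 16.2% fell, 7 rose and 18 fell for the large subunit, and 6 rose and 19 fell for the small one. Plus2 against the archetype, where all genes gave 13% higher and 15.9% lower, had 1 higher and 32 lower for the large subunit. For the small one it gave 0 higher, also 0 at an unadjusted p below 0.05 in limma, and 37 lower. Among genes of high signal the shares were larger. There 23.1% rose and 16.3% fell with the archetype, and 24.8% rose and 25.4% fell with plus2. Between plus2 and the archetype 18.5% of them were higher and 26% lower. NSA2 was not called against control with either mimic, at -0.15 ± 0.073 with the archetype and 0.13 ± 0.073 with plus2, though plus2 was 0.28 ± 0.073 above the archetype. FCF1 was -0.047 ± 0.059 with the archetype, not called, and fell by 0.18 ± 0.059 with plus2.

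**Figure D4:**
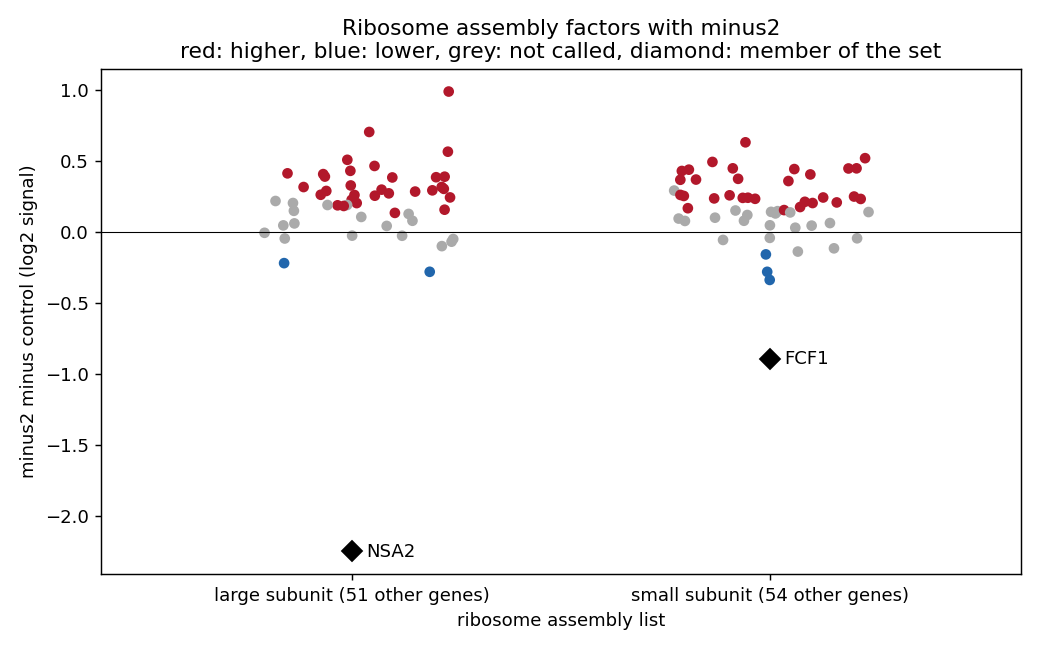
Difference of minus2 from control on the log2 scale for the other genes of large (51) and small (54) ribosomal subunit assembly, red for called higher, blue for called lower and grey for not called, with NSA2 and FCF1 as diamonds. NSA2 at -2.25 and FCF1 at -0.89, both chosen for being low with minus2, lie below every other gene of their lists.

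Among 16 other deubiquitinases, related to UCHL3 and OTUD4, 4 rose and 4 fell with minus2, with a median of 0.028. Over all genes tested 17.5% rose with minus2 and 11.9% fell. OTUB2 fell by 0.81 ± 0.055, YOD1 rose by 0.68 ± 0.091 and BRCC3 fell by 0.45 ± 0.073. OTUB2 also fell with the archetype (-0.95 ± 0.055) and with plus2 (-0.62 ± 0.055). Of the 5 other glycerophosphodiester phosphodiesterases 3 rose and 0 fell in limma, also 0 unadjusted, GDPD1 by 0.56 ± 0.13, GPCPD1 by 0.44 ± 0.054 and GDPD5 by 0.16 ± 0.044, against the -2.12 of GDE1. The PAQR receptors beside PAQR5 numbered 9, of which 4 rose and 2 fell. The adiponectin receptors ADIPOR1 and ADIPOR2 rose by 0.60 ± 0.040 and 0.36 ± 0.061, and PAQR4 fell by 0.28 ± 0.062.

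Beside HPS3, 22 other genes of BLOC complexes and lysosome-related organelles were tested, of which 6 rose and 2 fell with minus2. Over all genes tested 17.5% rose with minus2 and 11.9% fell, so little is read from these counts. The partners of HPS3 in BLOC-2 did not share its difference of -1.76, with HPS5 at -0.088 ± 0.056, not called, and HPS6 at 0.20 ± 0.069 (SE, limma adjusted p = 0.0482), higher. RAB38, a small GTPase of melanosome and lysosome-related traffic, fell by 1.05 ± 0.083 with minus2, but also by 0.62 ± 0.083 with the archetype and 0.81 ± 0.083 with plus2. AP3D1 and BLOC1S4 rose by 0.34 ± 0.047 and 0.33 ± 0.068. None of the 9 tested genes of the microRNA pathway is in the set, and 4 rose and 1 fell with minus2. DICER1, which cuts precursors to the mature form, rose by 0.52 ± 0.053 (SE, limma adjusted p = 2.45e-05), TNRC6A and TNRC6C, partners of Argonaute, by 0.39 ± 0.058 and 0.35 ± 0.063, and PRKRA fell by 0.25 ± 0.039.

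The lists of deubiquitinases, phosphodiesterases, PAQR receptors, BLOC genes and the microRNA pathway were counted without minus2 too. With the archetype against control, where 24.6% of all genes tested were called, 1 of the 16 deubiquitinases rose and 3 fell, 5 of the 9 PAQR receptors rose and 0 fell in limma (1 at an unadjusted p below 0.05), 6 of the 22 BLOC genes rose and 4 fell, and 1 of the 9 microRNA pathway genes rose and 2 fell. None of the 5 phosphodiesterases was called in limma, and 0 had an unadjusted p below 0.05. With plus2 against control, where 33.6% of all genes were called, 6 deubiquitinases rose and 3 fell, 2 PAQR receptors rose and 1 fell, 5 BLOC genes rose and 5 fell, and 2 microRNA pathway genes rose and 3 fell. Of the phosphodiesterases 2 rose. Lists this short can show no more than coarse shares, and nothing is read from those near the share of all genes. GDE1 was -0.14 ± 0.11 with the archetype, not called, and -0.33 ± 0.11 with plus2, lower, and PAQR5 was -0.12 ± 0.11 and -0.046 ± 0.11, neither called.

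Related genes of the same family were examined for 43 of the members, from a list of 62 written after some values were seen, of which 52 were measured above the floor. With minus2 against control, 15 of the 52 were called higher, 10 lower and 27 not at all, which may be set against 17.5% and 11.9% over all genes. The shares among high-signal genes were not counted for this comparison. Their median was 0.061, in a range of -1.53 to 0.65, while the members ranged from -2.38 to -0.60. The members were chosen for being low with minus2, so that gap is partly set by the rule. G3BP2, the copy of G3BP1, was higher by 0.65 ± 0.043 (SE, limma adjusted p = 8.68e-07) where G3BP1 lay -1.11 from control. GNA11, the close relative of GNAQ in the Gq family, was higher by 0.39 ± 0.087 (SE, limma adjusted p = 0.00556), EFR3B by 0.49 ± 0.066 beside EFR3A, SLFN12 by 0.61 ± 0.069 beside SLFN5 and NAPA by 0.37 ± 0.046 beside NAPG. LMNB2, the other B-type lamin, was not called (-0.0013 ± 0.050), nor were LAMP2 (-0.042 ± 0.067), SERINC1 (-0.063 ± 0.060) and UCHL5 (-0.096 ± 0.045). Among the 10 called lower, in the same direction as their members, CPNE3 was lower by 1.53 ± 0.053 and SLC39A10 by 0.55 ± 0.051. CDK2AP2 (-0.44 ± 0.054) and PPP1R11 (-0.44 ± 0.059) came next. SLC39A10 was not called with the archetype (-0.052 ± 0.051) and was higher with plus2 (0.24 ± 0.051). CPNE3 also differed with the archetype (-1.16 ± 0.053, SE, limma adjusted p = 7.50e-08) and with plus2 (-1.70 ± 0.053, SE, limma adjusted p = 1.67e-09). The rises of G3BP2 and SLFN12 were not particular to minus2. G3BP2 was also called higher with the archetype (0.61 ± 0.043) and plus2 (0.37 ± 0.043), and SLFN12 likewise (0.33 ± 0.069 and 0.36 ± 0.069). GNA11 was lower with both (-0.27 ± 0.087 and -1.22 ± 0.087), and EFR3B and NAPA were called with neither. Without control replicate 2, or without minus2 replicate 1, 9 of the related genes were called higher with minus2 instead of 15.

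**Figure D5:**
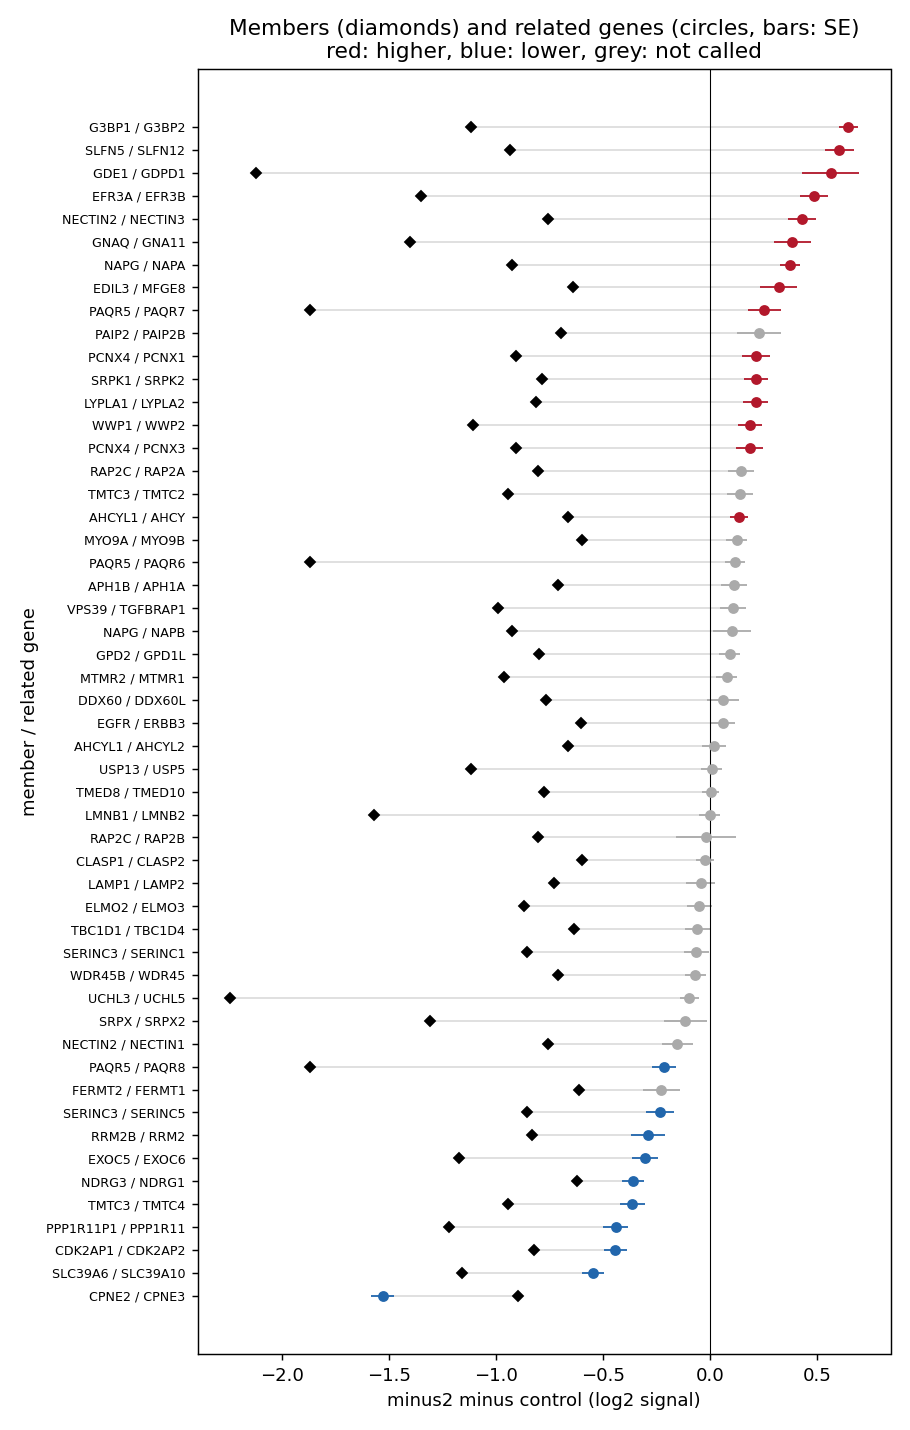
Difference of minus2 from control on the log2 scale for 52 related genes (circles with SE bars, red for called higher, blue for called lower, grey for not called) and the member each is paired with (diamonds). The related genes lie around 0, between -1.53 for CPNE3 and 0.65 for G3BP2. The members were chosen for being low with minus2.

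By position, 10 of the 86 genes lie on chromosome 14 (11.6%), where 3.50% of the genes tested lie. They are EXOC5, LINC03033, FCF1, PCNX4, GON7, TMED8, SUPT16H, NIN, GALC and FERMT2, with differences of -1.17, -1.30, -0.89, -0.91, -0.79, -0.77, -0.72, -0.65, -0.61 and -0.61. The zinc finger genes with a ZNF symbol supplied 5 members of 466 tested (1.07%), where 0.576% of all genes tested are members. Both counts were noticed in the set and are given with no test. In the RefSeq annotation 46 members overlap another gene, and for 21 of them 23 overlapping genes were measured here. The latter differed from control with minus2 by between -0.31 (ZNF610) and 0.26 (MIR577), outside the range of the members.

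Promoters are shown for NSA2, the member with the largest margin, and TNFRSF9, the only member whose window held the NF-kB motif. A window of 250 bases before to 50 after the start was found in RefSeq (GRCh38.p14) for 68 of the 86 genes. That of NSA2 is chr5:74766999-74767298, plus strand, with an ETS motif on the opposite strand in capitals, whose first base lies 126 before the start. That of TNFRSF9 is chr1:7940790-7941089, minus strand, with the NF-kB motif in capitals, 74 before the start.
NSA2: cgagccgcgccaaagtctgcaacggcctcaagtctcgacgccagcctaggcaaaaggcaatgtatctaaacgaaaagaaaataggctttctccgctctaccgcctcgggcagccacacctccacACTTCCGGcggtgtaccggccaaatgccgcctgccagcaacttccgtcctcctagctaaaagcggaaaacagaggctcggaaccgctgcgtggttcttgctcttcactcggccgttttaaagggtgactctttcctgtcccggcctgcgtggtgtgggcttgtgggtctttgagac
TNFRSF9: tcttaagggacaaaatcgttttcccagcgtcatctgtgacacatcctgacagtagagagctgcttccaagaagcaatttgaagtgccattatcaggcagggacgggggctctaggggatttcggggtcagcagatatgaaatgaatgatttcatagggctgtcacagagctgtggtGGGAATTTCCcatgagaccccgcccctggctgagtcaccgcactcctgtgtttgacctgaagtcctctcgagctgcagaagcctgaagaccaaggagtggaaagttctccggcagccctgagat
The ETS letters CCGGAAGT, on either strand, were in 7 of the 68 windows (10.3%) against 8.08% of those of the genes tested, and the NF-kB letters, GGG and TTTCC with any 2 bases between, in 1.47% against 2.16%. The NF-kB genes ICAM1 and TNFAIP2 and the CXCL genes were left out of the set by its rule. The CCAAT letters were in 15 windows (22.1% against 36.8%), the SP1 letters GGGCGG in 63.2% against 67.4%, the AP-1 letters TGANTCA in 1.47% against 4.93% and the TATA letters TATAAA in 4.41% against 6.35%. The CRE letters TGACGTCA were in 4.41% against 3.14% and the E-box letters CACGTG in 10.3% against 9.88%, all on both strands. The match to the minus2 seed, GCCATAC, read on the gene's strand, was in none of the 68 windows and in 0.373% of those of the genes tested. That to the archetype seed, GTGCCAT, was in 2.94% against 0.644% (2 windows, TNFRSF9 and MBTPS2) and that to the plus2 seed, CAGTGCC, in 2.94% against 3.19%. The minus2 and archetype matches share 5 letters, and so do those of the archetype and plus2, so they can overlap. The windows are promoter DNA and not the transcript, and a match or its absence is a description of these letters only. The median share of G and C was 63.7% in the members' windows and 64.7% over the genes tested.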

How the data were processed

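RNA of MDA-MB-231 cells was measured on 12 arrays, 3 in each of 4 groups. The deposited values are log2 signals per transcript cluster. Per the submitters' processing notes the software was Affymetrix Expression Console 1.4.1, with RMA, and no settings are given. The log2 scale is read from the range of the values, 1.79 to 19.9, and array medians of 4.73 to 4.80. GEO's platform annotation gave 1 symbol to 23781 of 67528 clusters. Symbols were updated through RefSeq (GRCh38.p14), which changed 306 and matched 22407 of 22411 genes. The cluster of highest mean stood for a gene, and 14940 genes above a mean of 4.54 were tested. Group means were fitted over 12 arrays using lmFit and eBayes of limma 3.58.1 (R 4.3.3, 8 residual degrees of freedom) and adjusted by Benjamini-Hochberg over all genes tested, with a threshold of 0.05. Errors of differences are SEs, and those of signals SDs. The fit was tested on simulated data. The members, lists and tests were chosen with earlier results of these data known. Array by array, the text gives the 12 genes of largest margin and up to 5 called genes each way in the comparisons without minus2. Of the 12 genes left out by name no test is reported. The number of arrays limits the precision. Alternatives were another scaling (centring or quantile), filter, fold, variance trend, array weights, a replicate block, fits on 2 groups and leaving out each array. Alternatives for the gene lists and the related genes were added after the data were seen.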

Additional observations from a re-analysis of the deposited data

How the results depend on the processing

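The rule found 86 genes as reported, and at 2-fold instead of 1.5-fold it found 15, all among the 86, because the alternative asks for a larger difference. It found 82 with arrays centred on their medians, 93 after quantile normalisation, 86 with no filter on low signal and 87 with no demand on single arrays. Leaving out each array in turn gave 81 to 92. The genes called with the archetype against control numbered 27, and 18 to 28 with an array left out, the lowest without control replicate 2. Those called with plus2 against control numbered 45 and 38 to 47, and between plus2 and the archetype 45 and 36 to 45. The median minus2 difference of the 12 leading genes stayed between -1.62 and -1.55. With the replicate number as a block, 26, 48 and 45 genes were called. The numbers may pair the arrays, since 10 of 12 arrays correlated best with their own number. Of 18 same-numbered pairs, 9 had a correlation of deviations above 0.1. Their range was -0.045 to 0.27, against -0.27 to 0.16 for pairs of other numbers. The main fit does not use the numbers. With each setting run, 25 to 36 of the other large subunit genes and 25 to 34 of the small subunit genes rose with minus2, and 9 to 16 of the related genes were higher. Centring moved the median of no array by more than 0.029. Having 3 arrays a group limits which small differences can be called.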

Other observations

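Clusters with several gene symbols or none were not named and lie outside the comparisons above. Of 20971 such clusters above the same floor, 52 met the same values, with the 3 minus2 arrays lowest by 1.5-fold or more. Of these, 46 carried no symbol and 6 carried several. CFB is represented by several clusters on alternative copies of its region, which are not independent. The one used here differed by -1.17 with minus2 against control.

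The 12 genes that met the values but were left out by name had minus2 differences from control of between -1.94 (CXCL8) and -0.69 (PPME1). PTP4A1 lay at -1.92, its pseudogene PTP4A1P7 at -1.08, NCOA4 at -1.68 and TGFBR2 at -1.16. CXCL8, the neutrophil chemokine interleukin-8, had a mean log2 signal of 7.72 with minus2 against 9.66 in control, while the archetype gave 9.97 and plus2 11.68, so plus2 and minus2 lay on opposite sides of control. PPME1, which removes the methyl group from protein phosphatase 2A, was at 10.09 with minus2, 10.79 in control, 12.17 with the archetype and 11.45 with plus2.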
